A study of Mus musculus with 56 samples.

Results

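Sterol sensing, uptake and efflux genes were examined in visceral adipose tissue (VAT) of mice under inverted feeding. The set comprised 9 genes, Srebf2, Insig1, Insig2, Scap, Stard4, Abca1, Abcg1, Mylip and Npc1, chosen by name as the rows of the expression table whose Ensembl identifiers map to these symbols. All 9 were found among the 25939 genes listed, and all 9 had reads in each of the 56 libraries, so none was lost to low values.

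Cells hold their sterol level by a feedback loop in the membrane of the endoplasmic reticulum. When sterol is low, SCAP escorts the precursor of the transcription factor SREBP-2, the product of Srebf2, to the Golgi, where it is cut and released to the nucleus. When sterol is high, the INSIG proteins, encoded by Insig1 and Insig2, hold SCAP back. Insig1 is itself a target of SREBP, and Stard4, a cytosolic carrier of cholesterol, is another. On the other side of the balance, the nuclear receptor LXR is activated by oxysterols and induces the efflux pumps Abca1 and Abcg1 and the ubiquitin ligase Mylip, which lowers lipoprotein uptake. Npc1 moves cholesterol out of lysosomes. Adipose tissue stores a large pool of free cholesterol, much of it in the adipocyte.

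The mice were C57BL/6J females that lived in 12 h of light and 12 h of darkness and, from 7 weeks of age, ate normal chow freely for 7 days. They then had food only by day (daytime-restricted feeding, DRF) or only by night (nighttime-restricted feeding, NRF, the control) for 7 days, and were 9 weeks old at collection. VAT was taken at ZT0, 4, 8, 12, 16, 20 and 24, where ZT0 is lights on and ZT12 lights off, with 4 libraries per regimen and time point. The regimens therefore share the light cycle and differ in when food was present, and no freely fed group was analysed here.

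Between 31198777 and 41230821 reads per library were recovered from the deposited values, and every member had at least 324 reads in every library. Levels are given below as CPM, reads scaled to a common library size. The tissue carried its label's markers: the 7 adipocyte genes on the marker list summed to between 9539 and 32179 CPM. A pair of DRF libraries, replicate 4 at ZT0 and replicate 1 at ZT8, stood apart on the second principal component, at 9.16 and 10.3 median absolute deviations from the median. The 6 epithelial markers summed to 1105 and 552 CPM in them, against 27.9 to 122 CPM in the other 54 libraries. The counts of members called for a feeding effect, a mean level difference and a rhythm difference were the same without the pair, at 6, 3 and 7.

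The genes are all protein-coding and were placed on GRCm38, the build the files use under the name mm10. Of the sensing genes, Srebf2 (ENSMUSG00000022463) at chr15:82147181-82205379 and Insig1 (ENSMUSG00000045294) at chr5:28071363-28078662 lie on the plus strand, as does Scap (ENSMUSG00000032485) at chr9:110333288-110384950, while Insig2 (ENSMUSG00000003721) at chr1:121304353-121332589 lies on the minus strand. Of the LXR targets, Abcg1 (ENSMUSG00000024030) at chr17:31057675-31117988 and Mylip (ENSMUSG00000038175) at chr13:45389742-45412022 are on the plus strand and Abca1 (ENSMUSG00000015243) at chr4:53030787-53159895 is on the minus strand.

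Insig1, Srebf2 and Abca1 stand for the arms of the loop in the following stretches of promoter. Insig1 and Srebf2 moved together with food, as described below, and Abca1 did not follow them. Each stretch ends where the gene begins in the reference annotation, is read 5′ to 3′ on the gene's strand, and comes from the RefSeq promoter table (build GRCm38.p6). Capitals mark the E-box CACGTG, a site class bound by clock and SREBP-type factors, or the letters TCACCCCA.
Insig1, chr5:28071162-28071362 (+): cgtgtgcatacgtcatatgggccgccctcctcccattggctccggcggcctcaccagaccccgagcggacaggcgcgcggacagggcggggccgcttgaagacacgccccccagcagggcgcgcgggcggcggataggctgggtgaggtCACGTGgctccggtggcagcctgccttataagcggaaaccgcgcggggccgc
Srebf2, chr15:82147019-82147180 (+): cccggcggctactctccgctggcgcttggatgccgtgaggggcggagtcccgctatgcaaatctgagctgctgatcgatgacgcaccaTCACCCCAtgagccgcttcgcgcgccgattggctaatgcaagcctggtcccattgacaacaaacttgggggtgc
Abca1, chr4:53159896-53160145 (-): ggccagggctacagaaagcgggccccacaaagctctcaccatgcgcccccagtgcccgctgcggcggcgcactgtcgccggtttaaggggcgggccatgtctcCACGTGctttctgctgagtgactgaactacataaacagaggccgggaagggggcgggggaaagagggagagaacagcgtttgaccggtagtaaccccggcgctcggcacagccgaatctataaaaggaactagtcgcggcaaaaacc

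The E-box begins 52 bases before the end of the Insig1 stretch and 147 bases before that of Abca1, and TCACCCCA begins 74 bases before the end of the Srebf2 stretch. The RefSeq start, from which the searched windows were measured, lies 49 bases further on for Insig1 and 88 bases further on for Srebf2. Of the 6 members searched, which excluded Abcg1, Npc1 and Stard4, 3 held CACGTG within 250 bases upstream of a start, namely Insig1, Abca1 and Scap. Across all 32851 promoters of that length, 6.02% held it. The 6 members had 9 such windows between them, so counts of members and shares of promoters are in different units. The sterol response element core TCACCCCAC, searched on both strands, was in none of the 6 and in 0.496% of all promoters. The shorter TCACCCCA, chosen after the Srebf2 sequence was read, was in 1 of the 6 and in 1.34% of all. A direct repeat of AGGTCA with a spacer of 4 bases, the LXR element, was in none of the 6 and in 0.0152% of all. These matches describe letters in these windows only.

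Per length, Insig1 was by far the most abundant member, and Abcg1 and Npc1 were the least. On the TPM scale, which also divides by gene length, computed from the recovered reads and gene lengths, the mean over the 56 libraries was 653 ± 341 for Insig1 and 97.2 ± 18.0 for Abca1 (SD). Insig2 followed at 56.9 ± 5.76, Mylip at 49.3 ± 12.6 and Srebf2 at 26.4 ± 5.02. Scap (16.2 ± 1.84), Stard4 (14.3 ± 5.42), Abcg1 (10.9 ± 4.50) and Npc1 (10.7 ± 4.21) formed the lower end, with means that lay within 1 SD of their neighbours. The lengths of Abcg1 and Npc1 were taken from the values, at 4066 and 10725 bases, because whole reads were not obtained with the reference exon lengths of 7298 and 11317 bases. Exons of Npc1 share 601 bases with Rmc1 and Gm15956 on the other strand, and those of Scap share 985 bases with 5830462I19Rik. Strand was not given for the counting, so reads from these bases cannot be told apart.

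**Figure D1:**
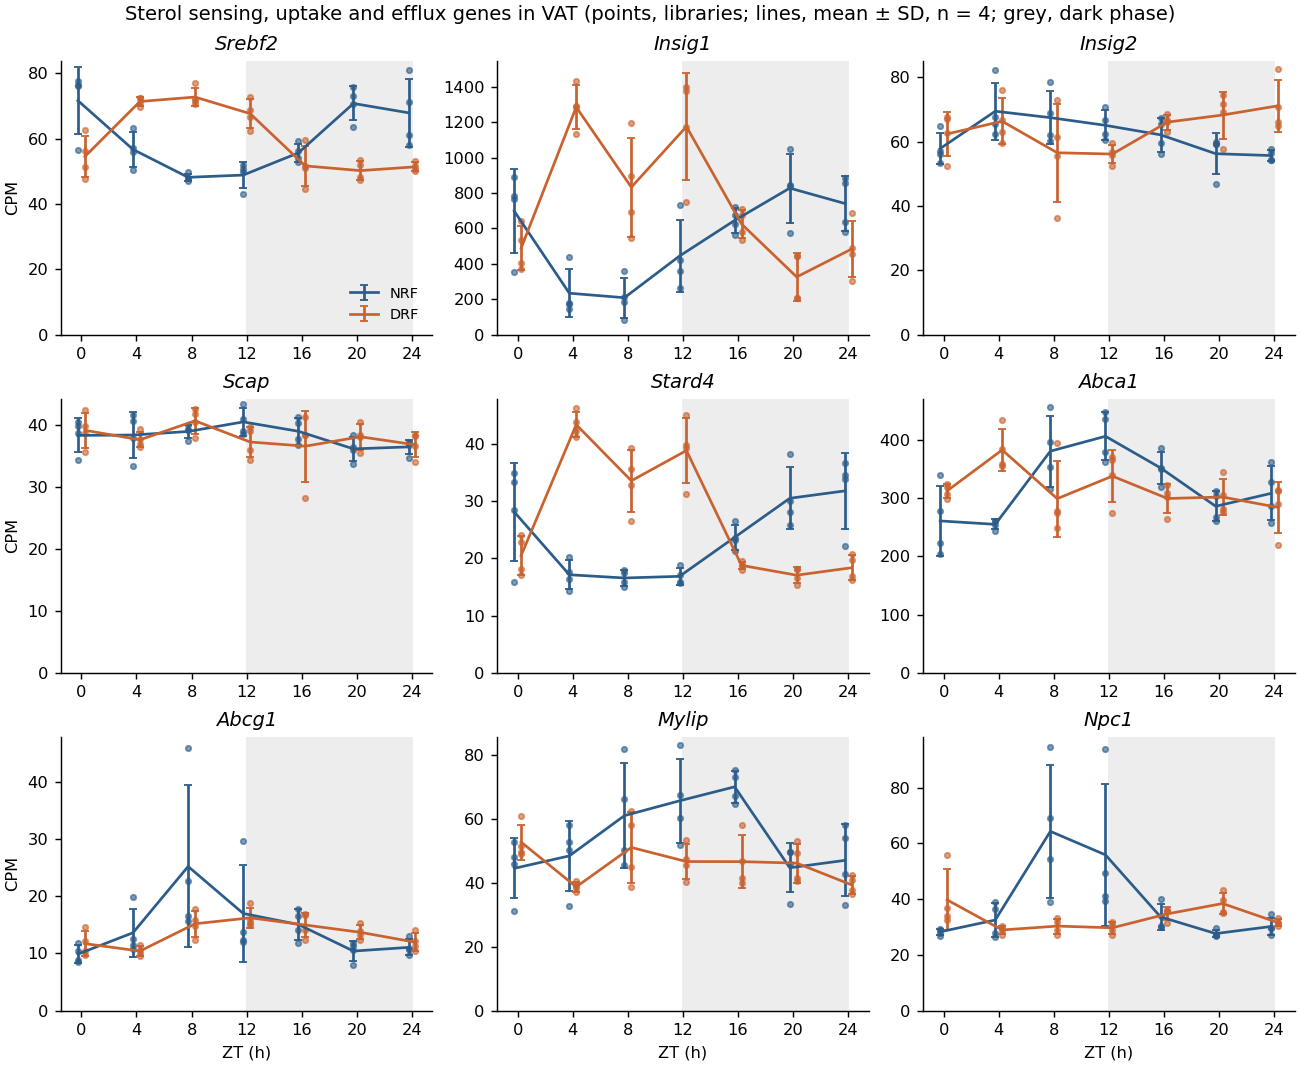
CPM (vertical axes, each from 0) of the 9 genes by zeitgeber time (horizontal axes, h). Points are libraries, lines join the means of 4 libraries with SD bars, NRF is blue, DRF is orange and the dark phase is grey. Insig1, Stard4 and Srebf2 are high from ZT4 to ZT12 under DRF and from ZT20 to ZT24 under NRF, while Scap stays between group means of 36.1 and 40.6 CPM.

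Insig1, the sterol-regulated brake on SCAP, had the widest range of the 9. At ZT4 its 4 NRF libraries read 437, 173, 148 and 179 CPM, and its 4 DRF libraries read 1431, 1131, 1292 and 1287 CPM. The groups were far apart, with all the DRF libraries above the highest NRF library. At ZT20 the NRF libraries read 838, 1051, 575 and 847 CPM, and the DRF libraries read 210.2, 443, 447 and 205 CPM. The order was thus turned over in the dark, again with no overlap. The level was 6.02-fold higher under DRF at ZT4 (log2 difference 2.59, SE 0.34, limma, adjusted p = 4.60e-07) and 2.66-fold lower at ZT20 (−1.41, SE 0.34, limma, adjusted p = 0.00297). The ZT20 difference had an adjusted p of 0.0598 without replicate 4.

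Taken by food, Insig1 under NRF had a lowest, median and highest level of 561, 698 and 1051 CPM in the 8 libraries of ZT16 and ZT20, when food was present. In the 8 of ZT4 and ZT8, when it was absent, these were 83.2, 182 and 437 CPM. The NRF windows did not overlap. Under DRF the levels were 547, 1162 and 1431 CPM with food (ZT4 and ZT8) and 205, 492 and 709 CPM without it (ZT16 and ZT20), and these windows overlapped. The lowest of the fed DRF libraries, at 547 CPM, was the ZT8 replicate 1 library that stood apart. Without it the windows still overlapped, since ZT8 replicate 2 read 693 CPM.

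Srebf2, which encodes SREBP-2, moved the same way over a much narrower range. At ZT8 its NRF libraries read 47.0, 49.7, 48.1 and 48.0 CPM and its DRF libraries 70.6, 72.1, 71.4 and 76.9 CPM. Replicates were tight and the groups were well separated. At ZT20 the NRF libraries read 72.9, 75.8, 63.7 and 70.7 CPM and the DRF libraries 47.5, 53.4, 51.9 and 48.2 CPM. The level was 1.5-fold higher under DRF at ZT8 (log2 0.58, SE 0.09, limma, adjusted p = 4.88e-06) and 1.4-fold lower at ZT20 (log2 −0.49, SE 0.09, limma, adjusted p = 8.37e-05). By food, the 8 fed DRF libraries lay between 69.6 and 76.9 CPM and the 8 without food between 44.7 and 59.5 CPM, with no overlap. Under NRF, 52.9 to 75.8 CPM with food overlapped 47.0 to 63.2 CPM without it.

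Scap, the escort and sterol sensor, was flat. Its 14 group means ran from 36.1 CPM at ZT20 under NRF to 40.6 CPM at ZT8 under DRF, a 1.13-fold range. The interval of its feeding effect, −0.06 to 0.09 on the log2 scale (95%), excludes changes of the size seen in Insig1 or Srebf2.

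Insig2, the second INSIG gene, ran against Insig1 with a small range. In NRF libraries it read 60.3 to 82.4 CPM without food (median 66.6) and 46.8 to 67.2 CPM with food (median 59.4). In DRF libraries it read 57.8 to 74.5 CPM without food (median 67.6) and 36.4 to 76.1 CPM with food (median 62.2). All of these windows overlapped. The feeding effect was −0.18 (SE 0.06, limma, adjusted p = 0.0212), a 1.13-fold lower level with food. It was lost without replicate 1 (−0.12, adjusted p = 0.11), without replicate 2 (−0.18, adjusted p = 0.137) and without replicate 4 (−0.19, adjusted p = 0.0549), and on the deposited values (adjusted p = 0.0947). Over the 56 libraries Insig2 had a Pearson r of 0.83 with the summed level of the 7 adipocyte markers, a description of libraries that share groups and time points. The lowest library of both was DRF ZT8 replicate 1, at 36.4 CPM for Insig2 and 9539 CPM for the markers. In bulk tissue, fewer cells of a type and less RNA per cell cannot be told apart, and the part of adipocyte content in the Insig2 difference was not tested.

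Stard4, the cytosolic cholesterol carrier (ENSMUSG00000024378, chr18:33199355-33213862, minus strand), followed Insig1 and had the smallest adjusted p of the 9 for food. At ZT4 its NRF libraries read 20.2, 16.5, 14.2 and 17.6 CPM, and its DRF libraries 41.3, 43.8, 46.2 and 42.2 CPM. At ZT24 the NRF libraries read 22.1, 34.6, 33.9 and 36.6 CPM and the DRF libraries 19.6, 16.2, 16.9 and 20.7 CPM. The groups did not overlap at either time, and the regimen with the higher level changed between them. The differences were 2.46-fold up under DRF at ZT4 (log2 1.30, SE 0.15, limma, adjusted p = 6.21e-08) and 1.67-fold down at ZT24 (log2 −0.74, SE 0.15, limma, adjusted p = 0.000903). Stard4 was the only member whose windows with and without food did not overlap under either regimen: 21.3 to 38.2 against 14.2 to 20.2 CPM under NRF, and 26.5 to 46.2 against 15.3 to 19.6 CPM under DRF.

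Npc1, the lysosomal exporter (ENSMUSG00000024413, chr18:12189692-12236400, minus strand), moved against Stard4. At ZT8 its NRF libraries read 54.6, 69.1, 38.9 and 94.7 CPM and its DRF libraries 33.3, 31.8, 27.3 and 29.0 CPM. At ZT12 the NRF libraries read 93.7, 49.3, 39.3 and 41.3 CPM and the DRF libraries 27.2, 32.0, 30.9 and 28.9 CPM. The NRF libraries were higher without overlap at both times, and they also scattered far more than the DRF libraries. The level was 1.99-fold lower under DRF at ZT8 (log2 −0.99, SE 0.18, limma, adjusted p = 6.96e-05) and 1.74-fold lower at ZT12 (log2 −0.80, SE 0.18, limma, adjusted p = 0.00103). The ZT12 difference was −0.52 (adjusted p = 0.0236) without NRF ZT12 replicate 1 and −0.48 (adjusted p = 0.0999) without replicate 1 of every group. Under DRF the highest single Npc1 value, 55.9 CPM at ZT0, came from the replicate 4 library that stood apart.

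Abca1, the pump that loads cholesterol onto lipid-poor apolipoproteins, was called rhythmic under NRF only, and no feeding effect was called for it. At ZT4 its NRF libraries read 243, 255, 261 and 261 CPM and its DRF libraries 433, 355, 384 and 358 CPM, without overlap. By ZT8 the NRF libraries had the higher mean, with 396, 316, 353 and 457 CPM against 249, 278, 275 and 395 CPM under DRF, and the groups overlapped. DRF was 1.5-fold higher at ZT4 (log2 0.58, SE 0.13, limma, adjusted p = 0.00132) and the difference at ZT8 was −0.36 (SE 0.13, limma, adjusted p = 0.0591). The feeding effect was 0.10 (95% interval −0.04 to 0.23, limma, adjusted p = 0.351), and the interval does not exclude a small effect. It bounds only the contrast of ZT4 and ZT8 with ZT16 and ZT20. The regimen differences at ZT4 and ZT8 had opposite signs, and the fitted NRF peak was at ZT 12.2. Changes of that kind cancel in the average, so a response of Abca1 to the time of feeding is not excluded.

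Abcg1, the pump that passes cholesterol to lipoprotein particles, was lowest in reads and rested on few libraries. At ZT8 its NRF libraries read 16.6, 45.9, 15.6 and 22.6 CPM and its DRF libraries 14.9, 15.8, 12.3 and 17.7 CPM. The highest value, in NRF ZT8 replicate 2, lay well above the rest, and the groups overlapped. That library also had the highest summed level of the 7 macrophage markers, 2059.5 CPM against a median of 1088 CPM over the 56 libraries. Macrophages express Abcg1 strongly, and the part of macrophage content was not tested. The feeding effect was −0.32 (SE 0.11, limma, adjusted p = 0.0241). It was −0.23 with an adjusted p of 0.0589 without that library, and −0.27 with an adjusted p of 0.0571 without NRF ZT4 replicate 3. It was also lost without replicate 2 (−0.23, adjusted p = 0.154) and without replicate 4 (−0.31, adjusted p = 0.132).

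Mylip, the LXR-induced ubiquitin ligase for lipoprotein receptors, had its highest group mean at ZT16 under NRF. The NRF libraries there read 67.2, 64.9, 75.4 and 73.3 CPM and the DRF libraries 58.2, 47.0, 41.6 and 40.1 CPM, with no overlap. The level was 1.5-fold lower under DRF at that time (log2 −0.59, SE 0.18, limma, adjusted p = 0.0239). The Mylip call was lost without DRF ZT16 replicate 3 (−0.54, adjusted p = 0.0777) or 4 (−0.52, adjusted p = 0.085), without NRF ZT16 replicate 3 (−0.55, adjusted p = 0.0641) or 4 (−0.57, adjusted p = 0.0571), and without replicate number 2, 3 or 4 (adjusted p up to 0.165). By food it did not separate, with an effect of 0.00 (95% interval −0.17 to 0.17, limma, adjusted p = 0.99). Its fitted NRF peak, at ZT 12.5 ± 0.91 (SE), lay midway between the times compared, ZT4 and ZT8 against ZT16 and ZT20. A 24-h rhythm with that peak cancels in this contrast, so the value near 0 cannot show or exclude one.

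When the 14 groups were ranked by mean log2(CPM + 1), all 13 pairs of neighbours in the order overlapped within 1 SD in each of the 9 genes. Neighbours in a ranking lie close by construction, so this cannot tell a continuous order from separate levels.

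Across the set, the effect of food was then separated from that of the light or dark phase. The feeding effect is the level when food was available minus that when it was withheld, averaged over the regimens. ZT4 and ZT8 stood for the light phase and ZT16 and ZT20 for the dark phase. ZT0, ZT12 and ZT24 were left out. A 24-h rhythm with its peak near ZT0 or ZT12 therefore largely cancels in the feeding effect. Of the 9 members, 6 passed the limma test at an adjusted p under 0.05 over all genes, against a background of 24.5% of the 25937 genes tested. The 3 that were higher with food were Insig1 (2.91-fold, log2 1.54, SE 0.17, adjusted p = 9.56e-10), Stard4 (1.79-fold, log2 0.84, SE 0.08, adjusted p = 7.50e-12) and Srebf2 (1.30-fold, log2 0.38, SE 0.04, adjusted p = 2.85e-09). The 3 that were lower were Npc1 (1.33-fold, log2 −0.41, SE 0.09, adjusted p = 0.000306), Abcg1 (1.24-fold) and Insig2 (1.13-fold). The median of the 9 effects was 0.02, and that of all genes tested was −0.00359.

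Within the regimens the same 3 genes were higher with food. Under NRF, Insig1 rose by 1.86 (SE 0.24), Stard4 by 0.64 (SE 0.11) and Srebf2 by 0.26 (SE 0.06) on the log2 scale. Npc1 and Abcg1 fell by 0.53 (SE 0.13) and by 0.46 (SE 0.15). In all, 5 of 9 passed under NRF against a background of 23.0%. The Abcg1 fall was lost without NRF ZT8 replicate 2 (−0.30, adjusted p = 0.116), NRF ZT4 replicate 3 (adjusted p = 0.0824), NRF ZT16 replicate 4 (adjusted p = 0.0593) or NRF ZT20 replicate 2 (adjusted p = 0.0614), and without replicate number 2 or 4. The Npc1 fall had an adjusted p of 0.0576 without replicate 4. Under DRF, Insig1 rose by 1.22 (SE 0.24), Stard4 by 1.05 (SE 0.11) and Srebf2 by 0.50 (SE 0.06), and these were the 3 of 9 that passed against a background of 18.2%. Npc1 had a DRF effect of −0.29 (SE 0.13, limma, adjusted p = 0.104).

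The contrast named light here, the light phase minus the dark phase averaged over the regimens, passed in 0 of 9 members in limma against a background of 12.2%. It holds light, clock time and activity together, and these cannot be told apart. At an unadjusted p under 0.05 there were 2 of 9, Srebf2 and Stard4, beside 25.1% of all genes, and limma-voom called 0. The contrast is also the test of whether the feeding effect differed in size between the regimens. The values ran from −0.32 for Insig1 (SE 0.17, adjusted p = 0.235) to 0.20 for Stard4 (SE 0.08, adjusted p = 0.0771), and that of Srebf2 was 0.12 (SE 0.04, adjusted p = 0.0706). For Stard4 and Srebf2 the 95% interval, 0.05 to 0.35 and 0.03 to 0.20, lay above 0 before adjustment. No difference between the phases was thus shown for them and none was excluded. Without NRF ZT0 replicate 1, which enters the test through the spread alone, both passed. Srebf2 also passed without DRF ZT16 replicate 4 or NRF ZT4 replicate 3, Stard4 without DRF ZT8 replicate 2 or NRF ZT20 replicate 2, and Insig1 without replicate 1 of every group (adjusted p = 0.0496). Other alternatives weakened these effects, to −0.11 for Insig1, 0.07 for Srebf2 and 0.14 for Stard4. Their adjusted p in limma reached 0.848, 0.266 and 0.257 over the alternatives.

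**Figure D2:**
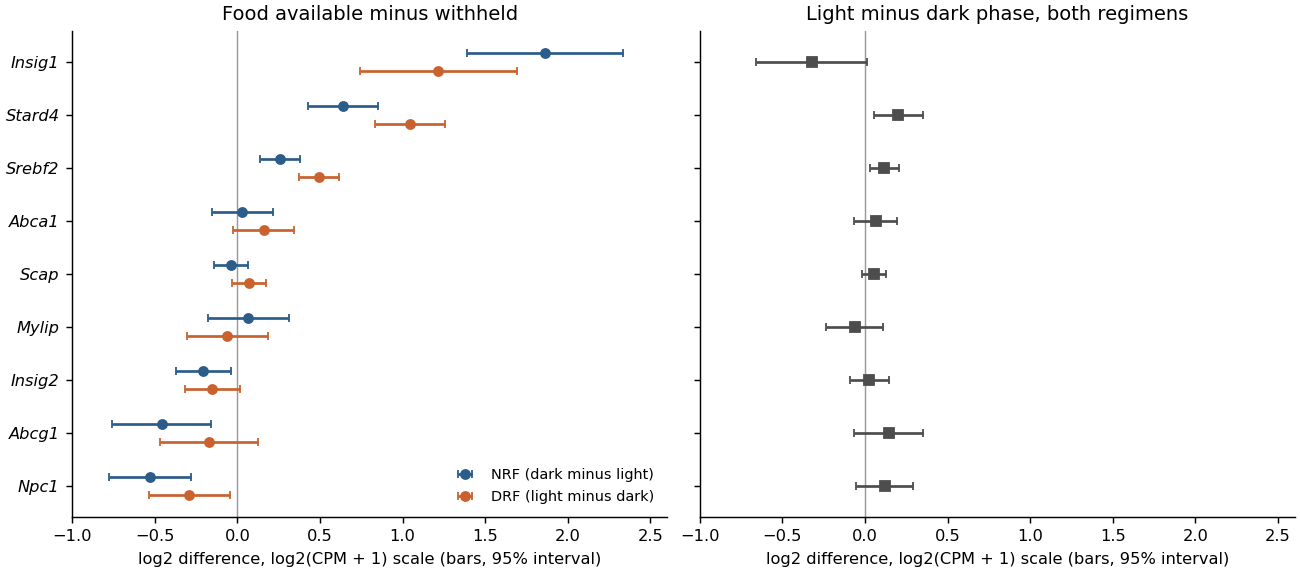
Log2 differences (horizontal axes, log2(CPM + 1) scale) of the 9 genes with 95% intervals. On the left, food available minus withheld under NRF (blue) and DRF (orange), and on the right, the light minus the dark phase over both regimens. Insig1, Stard4 and Srebf2 lie above 0 under both regimens on the left, at 1.86 and 1.22 for Insig1, and the right-hand values stay between −0.32 and 0.20.

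At single time points, 19 of the 63 comparisons of DRF with NRF passed in limma. Srebf2 passed at 6 of 7 time points, Stard4 at 5, Insig1 at 4, Npc1 at 2, Abca1 and Mylip at 1 each, and Insig2, Scap and Abcg1 at 0. ZT0 and ZT24, both lights on, count as separate time points here. Srebf2 lost its call at ZT0 and ZT4 without replicate 2 or 3 (adjusted p between 0.0548 and 0.089) and at ZT24 without replicate 4 (adjusted p = 0.0508). At ZT4, ZT8 and ZT12 there were 4 of 9 each, against backgrounds of 19.5%, 16.5% and 16.1%. At ZT20 there were 3 of 9 against 13.1%, and at ZT24 there were 2 of 9 against 11.3%. At ZT0 and ZT16, 1 of 9 passed, near the backgrounds of 10.5% and 9.97%. From ZT4 to ZT12, Insig1, Stard4 and Srebf2 were higher under DRF. At ZT20 all 3 were lower. At ZT16, 4 h into the dark phase, their differences were −0.05 for Insig1, −0.32 for Stard4 and −0.11 for Srebf2, and none passed.

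**Figure D3:**
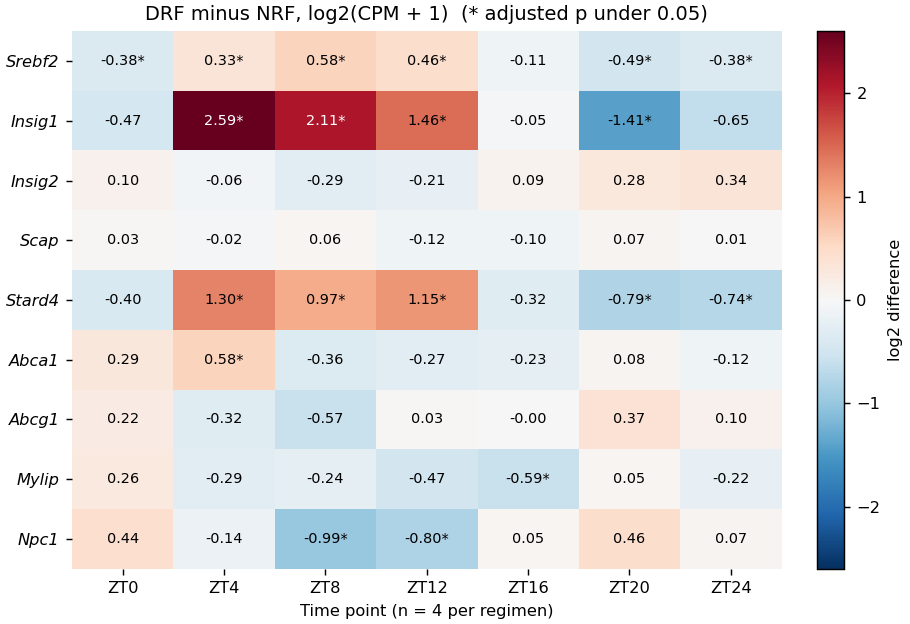
DRF minus NRF in log2(CPM + 1) for each gene (rows) and time point (columns), with 4 libraries per regimen. Red is higher and blue is lower under DRF, and an asterisk marks an adjusted p under 0.05. Insig1 turns from 2.59 at ZT4 to −1.41 at ZT20, and the largest fall of Npc1 is −0.99 at ZT8.

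Averaged over the 7 time points, 3 of 9 members differed between the regimens in limma, against a background of 22.2%. ZT0 and ZT24 are both lights on and each enters this mean in full, so lights on weighs more than any other time of day. Insig1 was 1.43-fold higher under DRF (log2 0.51, SE 0.13, adjusted p = 0.00276) and Stard4 1.12-fold higher (log2 0.17, SE 0.06, adjusted p = 0.0315). Mylip was 1.16-fold lower (log2 −0.21, SE 0.07, adjusted p = 0.0156). The Stard4 difference was 0.14 with an adjusted p of 0.0536 without NRF ZT24 replicate 1. The Stard4 mean level difference was also lost without replicate 1, 3 or 4 (adjusted p between 0.0924 and 0.132), and that of Mylip without replicate 3 (adjusted p = 0.0985). Srebf2, whose level differed at most time points, had a mean difference of 0.00 (95% interval −0.06 to 0.07).

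Rhythms of 24 h were tested in each regimen by a rank test (JTK_CYCLE) and a periodogram (Lomb-Scargle), joined into a single p-value by Fisher's method as MetaCycle does. Under NRF, 7 of 9 members were rhythmic against a background of 28.6%, and the exceptions were Insig2 (adjusted p = 0.0515) and Scap (adjusted p = 0.2). Under DRF, 5 of 9 were rhythmic against 14.9%, namely Srebf2, Insig1, Stard4, Abcg1 and Npc1. A limma F test of the 24-h cosine and sine, run as an alternative, called Insig2 under both regimens (adjusted p = 0.025 under NRF and 0.030 under DRF) and did not call Npc1 under DRF (adjusted p = 0.115). The Insig2 call under DRF was lost without DRF ZT8 replicate 1, the library that stood apart (amplitude 0.10 against 0.15, adjusted p = 0.128), and on the deposited values both Insig2 calls were lost (adjusted p = 0.131 under NRF and 0.22 under DRF). The Insig2 call was also lost under DRF without ZT12 replicate 2, ZT20 replicate 2 or ZT24 replicate 3 (adjusted p between 0.051 and 0.0588), under NRF without ZT20 replicate 1 or ZT8 replicate 4 (adjusted p = 0.0685 and 0.0746), under NRF without replicate number 4 (adjusted p = 0.113), and under both without replicate number 1 or 2 or without ZT24. In the combined rank and periodogram test, when a replicate number was left out, 4 to 7 members were called under NRF and 1 to 4 under DRF. The call of Insig1 under DRF was lost without replicate 2, 3 or 4 (adjusted p = 0.0876, 0.113 and 0.16) and without the ZT24 libraries (adjusted p = 0.0701). The DRF call of Abcg1 was lost without replicate 2 (adjusted p = 0.0917), and that of Srebf2 without replicate 1 (adjusted p = 0.0534). Without replicate 4, Npc1 was the member still called under DRF, and Srebf2, Insig1, Stard4 and Npc1 were those under NRF. The limma F test called Abcg1 under DRF (adjusted p = 0.0381). That call was lost without any 1 of the replicate numbers (adjusted p between 0.0526 and 0.166). It was also lost without the pair that stood apart (adjusted p = 0.0569), without ZT24 (adjusted p = 0.0816) and without some single libraries (adjusted p up to 0.0767).

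The difference in rhythm itself was tested in limma as the interaction of the regimen with the 24-h cosine and sine. It passed in 7 of 9 members against a background of 36.0%, and the adjusted p ran from 3.49e-14 for Srebf2 to 0.0237 for Abcg1. Mylip (adjusted p = 0.066) and Scap (adjusted p = 0.467) did not pass. With single libraries left out, the adjusted p of Mylip ran from 0.0332 to 0.121, so some of these fits called it. The Abcg1 difference had an adjusted p of 0.0738 without NRF ZT8 replicate 2, and that of Abca1 (adjusted p = 0.00603) was 0.0723 on the deposited values. Without single replicate numbers, Abcg1 lost its call in 3 of 4 fits and Abca1 in 3 of 4.

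In the cosinor fit, the fitted peak moved by between 9.74 and 11.1 h in 5 genes. Srebf2 peaked at ZT 22.0 ± 0.44 under NRF and 7.74 ± 0.39 under DRF (SE), a shift of 9.74 h (95% interval 8.56 to 10.9). Insig1 went from 19.4 ± 0.48 to 8.35 ± 0.67, a distance of 11.1 h (95% interval of the shift −12.7 to −9.41). Stard4 went from 20.8 ± 0.56 to 7.85 ± 0.40, a distance of 11.03 h (95% interval 9.63 to 12.4). These 3 genes thus peaked in the later part of the dark phase under NRF and of the light phase under DRF. Insig2 and Npc1 went the other way round. Insig2 peaked at 8.56 ± 1.15 under NRF and 21.6 ± 1.22 under DRF (95% interval of the shift −14.4 to −7.61). The combined rhythm test did not call Insig2 under NRF (adjusted p = 0.0515) or under DRF (adjusted p = 0.793). Npc1 peaked at 9.70 ± 0.53 under NRF and 19.9 ± 1.40 under DRF (95% interval 7.20 to 13.2).

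For the efflux genes the shifts were less well placed. Abcg1 moved from 9.74 ± 0.70 to 13.5 ± 1.34, a shift of 3.81 h (95% interval 0.78 to 6.83) whose Wald call was lost without any 1 of the replicate numbers, and Abca1 from 12.2 ± 0.80 to 6.71 ± 2.21, with an interval of the shift of −10.2 to −0.787 h. Mylip peaked at 12.5 ± 0.91 under NRF, and its DRF phase had an SE of 4.35 h, too wide to place a shift. A Wald test of the shift passed in 6 of 9 members against a background of 42.5%. With a background that high, the shifts are given with their intervals and the limma interaction stands as the test.

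Amplitudes on the log2(CPM + 1) scale were 1.15 ± 0.16 under NRF and 0.86 ± 0.16 under DRF for Insig1 (SE), and 0.50 ± 0.07 and 0.68 ± 0.08 for Stard4. Those of Srebf2 were close, at 0.30 ± 0.03 and 0.32 ± 0.03, with an interval of the difference of −0.08 to 0.11. The amplitude was lower under DRF in Npc1 (0.54 ± 0.07 and 0.19 ± 0.08), Abca1 (0.29 ± 0.05 and 0.09 ± 0.06), Mylip (0.32 ± 0.07 and 0.07 ± 0.07) and Abcg1 (0.48 ± 0.08 and 0.25 ± 0.08) as values only. No member passed the Wald test of the amplitude difference, against a background of 1.44%, and at an unadjusted p under 0.05 there were 3 of 9, Npc1, Mylip and Abca1, beside 11.3% of all genes.

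**Figure D4:**
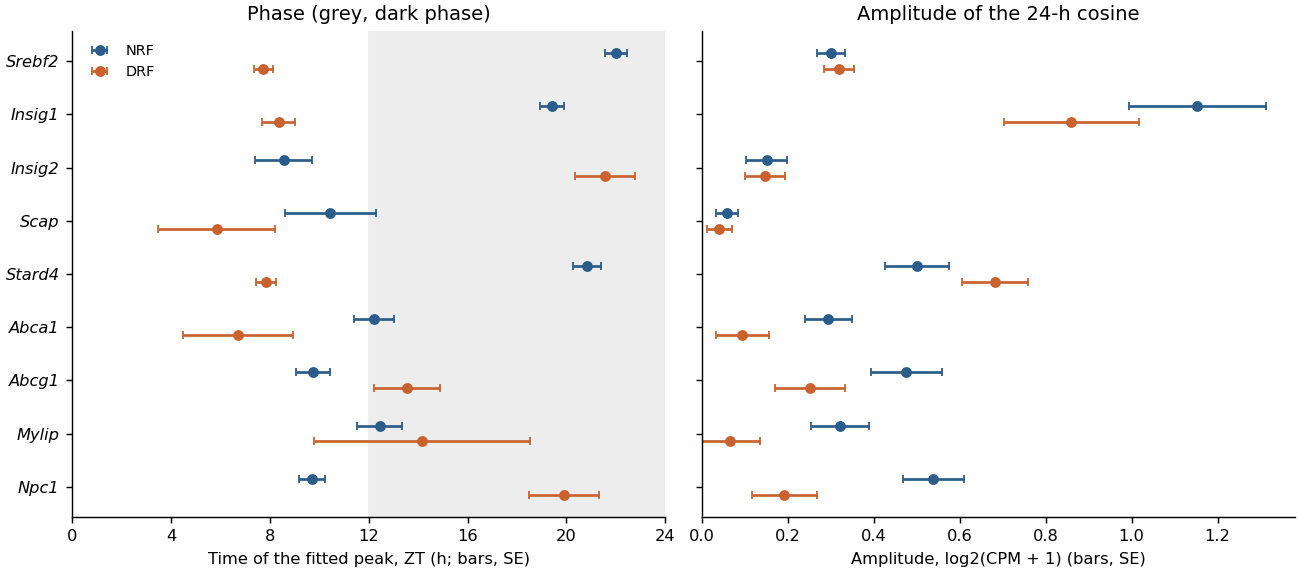
Time of the fitted 24-h peak (left, zeitgeber time in h) and amplitude (right, log2(CPM + 1)) of each gene under NRF (blue) and DRF (orange), with SE bars and the dark phase in grey. Srebf2, Insig1 and Stard4 change from peaks between ZT 19.4 and 22.0 to peaks between 7.74 and 8.35, and Insig2 and Npc1 change in the opposite sense.

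The members fell into groups by their profiles over the 14 group means, given here as a description of groups that share libraries. Stard4 had a Pearson r of 0.91 with Srebf2 and 0.89 with Insig1, and Srebf2 and Insig1 had 0.75. Npc1 ran against them, with −0.78 for Srebf2, −0.69 for Insig1 and −0.67 for Stard4, as did Insig2, with −0.77 for Srebf2. Abcg1 and Npc1 had an r of 0.74. Abca1 had 0.07 with Stard4 and 0.49 with Abcg1.

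Among 14094 genes with a symbol and a mean log2(CPM + 1) of at least 1, the profiles most like those of the members over the 14 group means were as follows. Stard4 was closest to Gramd2 (r = 0.98) and Tiam2 (0.97), and Srebf2 to Oxtr (0.97) and Polr3d (0.95). Insig1 was closest to Agpat2 (0.96), an enzyme of triglyceride synthesis, and Epb41l2 (0.96). Insig2 was closest to Celf2 and Rrm2b (both 0.93), and Npc1 to Vsig10l (0.94) and Osbp2 (0.94), the latter an oxysterol-binding protein. For Abca1 they were Desi1 (0.90) and Slc6a6 (0.87), for Abcg1 Col8a1 (0.89) and Pde10a (0.83), for Mylip AI838599 (0.90) and Prpf39 (0.89), and for Scap Sms-ps (0.88) and Zfp36 (0.84).

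The other genes of the pathway were read in the same test of the feeding effect. Of 18 enzymes of sterol synthesis, which are SREBP-2 targets, 14 were higher with food and 0 lower, beside the 24.5% of all genes called in either direction, with a median of 0.75 against −0.00359 for all genes. Mvd was 3.57-fold higher (log2 1.84, SE 0.20, adjusted p = 6.75e-10), Sc5d 2.67-fold (1.42, SE 0.16, adjusted p = 1.58e-09) and Sqle, which makes squalene epoxide, 2.65-fold (1.41, SE 0.20, adjusted p = 1.84e-07). Their rise matched in direction that of Insig1, Stard4 and Srebf2. By the contrast of the light with the dark phase, 6 of the 18 were lower and 1 was higher in the light phase. In mean level, 11 of the 18 were higher under DRF. Over all genes, 12.2% were called for light against dark phase and 22.2% for mean level, in either direction.

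Among the genes of SREBP processing, Srebf1, which encodes SREBP-1, was 2.0-fold higher with food (log2 1.00, SE 0.14, limma, adjusted p = 1.60e-07). The proteases Mbtps1 and Mbtps2 had effects of −0.07 each and the ligase Rnf139 one of −0.00403, and none of these passed. Of 6 genes for LXR and its other targets, Rxra, its partner receptor, was higher (0.31, SE 0.06, adjusted p = 0.000121) and Nr1h2, which encodes LXRβ, was lower (−0.14, SE 0.03, adjusted p = 0.0011). The other 4 did not pass, so that 2 of 6 were called beside the 24.5% of all genes.

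Of 12 genes of uptake, lysosome and intracellular transport, 1 rose and 2 fell with food, 3 of 12 beside the 24.5% of all genes. Stard5, a relative of Stard4, was 1.52-fold higher (0.60, SE 0.07, limma, adjusted p = 5.81e-09). Vldlr, a lipoprotein receptor, was 1.32-fold lower (−0.40, SE 0.07, limma, adjusted p = 4.59e-06), and the sterol-binding protein Osbp fell by 0.09 (SE 0.03). Npc2 and Lipa, which act in the lysosome beside Npc1, had values of −0.06 each and did not pass. Of 3 further efflux transporters, Abcg4 (−0.39, SE 0.10, limma, adjusted p = 0.00296) and Abca5 (−0.31, SE 0.05, limma, adjusted p = 5.46e-06) were lower with food. Abcg4 was low, with a median of 2.02 CPM. Abca7 (0.02) and the member Abca1 (0.10) had values above 0 and did not pass. Of 3 genes of esterification and ester hydrolysis, Lipe, hormone-sensitive lipase, was 1.6-fold lower with food (−0.68, SE 0.10, limma, adjusted p = 2.72e-07).

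**Figure D5:**
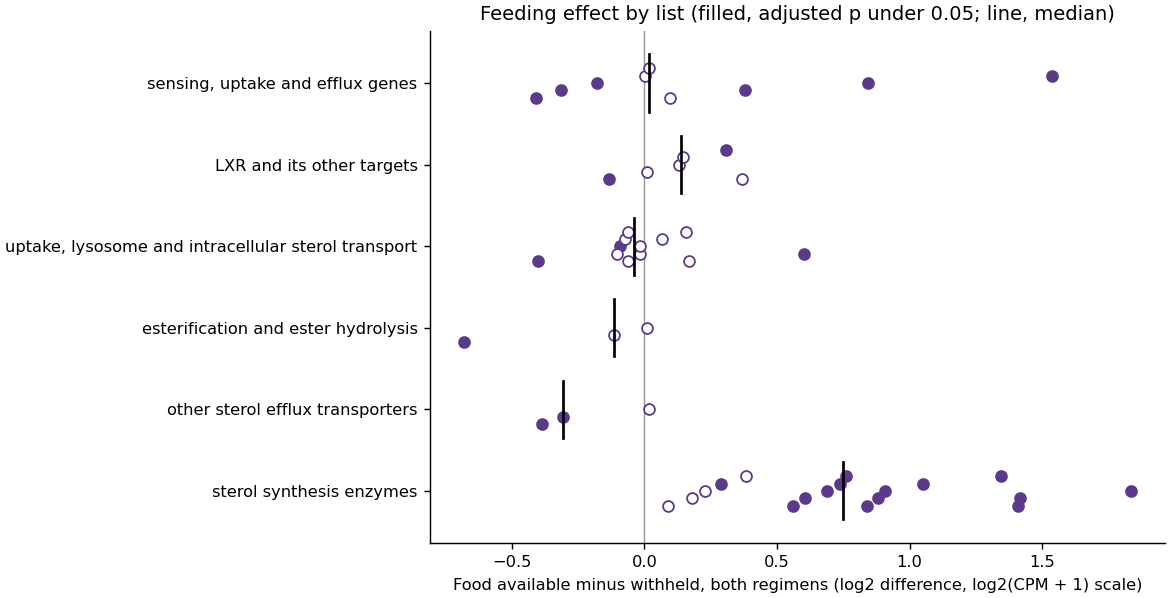
Feeding effect (horizontal axis, food available minus withheld over both regimens, log2(CPM + 1) scale) of each gene, for 5 of the pathway lists and the 9 members. Filled points have an adjusted p under 0.05 and vertical lines are medians. The synthesis enzymes centre on 0.75, with 14 of 18 filled, and the 9 sensing, uptake and efflux genes spread from −0.41 to 1.54.

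Marker genes of other cell types were read beside these results. Of 7 macrophage markers, 0 passed the limma test of the feeding effect, and 4 were lower under DRF in mean level, beside 24.5% and 22.2% of all genes called. Their summed level ran from 913 to 1421 CPM with food and 969 to 2059.5 CPM without it under NRF, and from 695 to 1195 and 840.4 to 1311 CPM under DRF. Of 7 adipocyte markers, Lep and Slc2a4 were higher with food and the other 5 did not pass. The adipocyte sum ran from 18787 to 27839 CPM with food and 18071 to 25708 CPM without it under NRF, and from 9539 to 29823 and 19158 to 29331 CPM under DRF. Of 3 progenitor markers, Pdgfra was lower with food (−0.25, SE 0.08, adjusted p = 0.0151). The summed progenitor level under DRF did not overlap by food, at 205 to 261 CPM with it and 274 to 337 CPM without it, and under NRF it did, at 293 to 382 and 278 to 359 CPM. Among the markers of B and T cells, epithelium, mesothelium, skeletal muscle, red cells and endothelium, 0 passed for food, and in mean level the 3 red cell markers were higher under DRF. Lower under DRF in mean level were Lrrn4 and Upk3b of mesothelium, Pdgfra and Dpp4 of progenitors, Cd3g of T cells and Adipoq of adipocytes, and Lep was higher. Over the 56 libraries, Insig1 had a Pearson r of −0.49 with the macrophage sum and −0.42 with the progenitor sum, and Stard4 had −0.37 and −0.40, again as a description. Insig2 had 0.41 with the macrophage sum and 0.42 with the red cell sum, and Abca1 had 0.39 with the red cell sum. Mylip and Abcg1 had 0.32 each with the macrophage sum. The part of these cell types in the members' differences was not tested.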

How the data were processed

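RNA of VAT was sequenced by the authors after poly(A) selection, in 56 libraries. The submitters' processing notes name HISAT2 2.0.5, featureCounts 1.5.0-p3 and mm10. The deposited value, named TPM, was treated as a score, because it behaves as log2(CPM + 1) divided by exon length and rescaled per library. Whole reads were recovered from it with GENCODE vM21 exon lengths: of 1216066 values tested, 99.9996% lay within 0.02 of a whole number, where even spread gives 4%.

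Group means of log2(CPM + 1) were fitted in limma 3.58.1 (R 4.3.3) with an intensity trend over 25937 genes, with Benjamini-Hochberg adjustment over all of them and a threshold of 0.05. Fold changes are on that scale, which understates changes of low genes. Rhythm tests ran on the deposited values and the cosinor, after CircaCompare, on log2(CPM + 1). Both were rewritten in Python (3.11.15; scipy 1.17.1) and, like the limma fits, tested on simulated data.

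The members and lists were chosen with earlier results of these data known. All members are named, with the 2 genes most like each and up to 3 called genes of each pathway list with the largest feeding effect. An item of a pathway list is not reported here. The labels do not say whether replicates were separate animals, so p-values measure the spread between these samples. Alternatives covered the pseudocount, scaling, a filter on low values, the deposited values, limma-voom, wider windows, the replicate block and left-out libraries.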

Additional observations from a re-analysis of the deposited data

Results flagged for a closer look

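In groups of 4 libraries, 7 values of the members lay far from the other 3 on log2(CPM + 1), by Dixon's criterion on the gap to the nearest of them. Of 126 groups tested, about 1 in 20 is flagged by chance. NRF ZT0 replicate 1 was low in Srebf2 (56.4 CPM, median of the others 76.3) and in Insig1 (352 CPM, median of the others 782). The other low values were Insig2 in NRF ZT20 replicate 1 (46.8 CPM against 59.2), Stard4 in NRF ZT24 replicate 1 (22.1 CPM against 34.6) and Npc1 in DRF ZT16 replicate 4 (31.3 CPM against 35.9). High values were Abcg1 in NRF ZT12 replicate 1 (29.7 CPM against 12.4) and Npc1 in NRF ZT20 replicate 3 (29.6 CPM against 27.0).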

How the results depend on the processing

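The feeding effect was called in 4 to 6 of 9 members when replicates or libraries were left out and in 5 or 6 under the other alternatives, and in Srebf2, Insig1, Stard4 and Npc1 under all that were run. The count for light was 0 in the report, 1 (Srebf2) with a mean CPM of at least 1, 1 (Srebf2) with the replicate block, and 0 to 2 with replicates or libraries left out (Insig1 without replicate 1, and Srebf2, Stard4 or both without single libraries). Replicate numbers did not pair the libraries (mean correlation of deviations 0.04 within a number), and beside the light count the block added 1 call, Insig2 at ZT24. Leaving out replicates or libraries gave 1 to 3 calls for mean level, 16 to 22 at single time points, 4 to 7 for NRF rhythm, 1 to 4 for DRF rhythm, 5 to 8 for rhythm difference, 5 to 7 for phase and 0 to 1 for amplitude. With a mean CPM of at least 1 there was 1 amplitude call (Npc1). Among feeding effects near 0 that passed under no setting, Scap turned to −0.011 and Mylip to −0.040 with windows of 3 time points, and the Mylip feeding effect was −0.000737 with median-of-ratios scaling. With replicates or libraries left out these ran from −0.013 to 0.051 and from −0.041 to 0.041. The cause of these moves was not tested. Every member had at least 324 reads in every library.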
